A study of Mus musculus with 3 samples.

Results

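TBX5 binding was mapped at 10 genes of the TGF-beta signalling pathway in hearts of mouse embryos, namely the ligand genes Tgfb2 and Tgfb3, the receptor genes Tgfbr1, Tgfbr2 and Tgfbr3, and the genes of the intracellular mediators Smad2, Smad3, Smad4, Smad6 and Smad7. A peak was taken as a member if its summit, the position of highest signal, lay in the RefSeq gene body on mm10 or within 50 kb of it. Of the 12436 peaks in the deposited list, 36 met this rule, and each fell into the window of 1 of the 10 genes. TBX5, a transcription factor with a T-box DNA-binding domain, was precipitated with an anti-TBX5 antibody from cross-linked chromatin of whole CD-1 hearts at stage E14.5. CD-1 is an outbred stock. The groups were 2 biological replicates of TBX5 ChIP and 1 sample of input chromatin, and no mutation or treatment is given for either. Peaks had been called once, with the ChIP samples pooled, so no peak has a value per replicate, the spread between hearts cannot be given, and no difference below was tested. Whole hearts were used, so binding in few cells and weaker binding in many cells cannot be told apart.

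TGF-beta ligands are secreted in a latent form, and after release they bind a type II receptor, which phosphorylates a type I receptor. The type I receptor phosphorylates SMAD2 and SMAD3, and these join SMAD4, enter the nucleus and regulate genes, while SMAD6 and SMAD7 inhibit signalling. In the embryonic heart the pathway is known for the change of endocardial cells into the mesenchyme of the cushions from which valves and septa form, and for remodelling of the outflow tract. TBX5 itself is known for roles in septation and in the conduction system.

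Promoter sequences of 5 of the 10 genes (Tgfb2, Tgfbr1, Tgfbr2, Smad3 and Smad6) matched the RefSeq table of GRCm38.p6, the assembly that mm10 names, with 2 start sites for Tgfbr1. Of these 6 promoters 2 were overlapped by a TBX5 peak, those of Tgfbr2, the type II receptor gene, and Smad6, an inhibitory SMAD gene. They are shown for that reason, 5′ to 3′ on the strand of the gene, with the last 50 bases after the start site, and capitals mark the bases that lie under the TBX5 peak.
Tgfbr2, chr9:116175314-116175613, minus strand: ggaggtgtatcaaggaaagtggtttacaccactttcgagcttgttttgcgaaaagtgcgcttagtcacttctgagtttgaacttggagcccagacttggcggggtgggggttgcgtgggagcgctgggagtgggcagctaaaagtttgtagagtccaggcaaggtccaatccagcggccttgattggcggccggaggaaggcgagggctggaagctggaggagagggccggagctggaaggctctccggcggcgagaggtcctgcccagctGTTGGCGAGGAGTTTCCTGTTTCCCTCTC
Smad6, chr9:64022010-64022309, minus strand: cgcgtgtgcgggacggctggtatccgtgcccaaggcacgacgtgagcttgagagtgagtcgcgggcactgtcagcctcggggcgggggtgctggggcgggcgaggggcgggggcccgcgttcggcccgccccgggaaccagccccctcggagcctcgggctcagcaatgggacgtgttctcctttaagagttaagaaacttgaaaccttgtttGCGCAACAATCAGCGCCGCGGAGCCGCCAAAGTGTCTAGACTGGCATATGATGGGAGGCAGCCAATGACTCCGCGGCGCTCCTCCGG
The peak covered 29 bases of the Tgfbr2 window and 87 bases of the Smad6 window, and in both its summit lay further into the gene. In the Smad6 promoter the SMAD palindrome GTCTAGAC, which reads the same on both strands, began 4 bases before the start site and lay under the peak. Of all 32619 RefSeq promoters of this length 0.215% held the palindrome, and of the 1949 overlapped by a TBX5 peak 0.410% did. It was the only match in that window among the 6 motifs searched on both strands, the others being the T-box core AGGTGT, the longer T-box motif AGGTGTGA, which contains that core, the SMAD box CAGAC, the GATA motif AGATAA and the NKX2-5 motif TNAAGTG. The Tgfbr2 window held 1 T-box core, whose first base lay at position -248 from the start, and 1 SMAD box at -160, both outside the bases under the peak. The T-box core stood in 13.8% of all promoters and in 16.2% of those under a peak, and the SMAD box in 49.5% and 44.2%. A match is a description of the letters and not evidence of a site.

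The ligand genes had 1 peak each, both at a distance from the gene. Tgfb2, a TGF-beta ligand gene expressed in the embryonic heart, had its peak on chromosome 1 at 186587248 to 186587506, 35506 bp outside the gene body of 186622787 to 186709697. Fold enrichment, the authors' ratio of pooled ChIP fragments to local background at the summit, was 4.41 there (2.74 to 6.77). The range in brackets after each fold is an exact 95% Poisson interval from the number of fragments at the summit, here 19. The background was held fixed, so the interval covers counting error of the ChIP fragments only and leaves out that of the background. This peak ranked 9434th in the list by fold, so most peaks were stronger. The start site that the authors' annotation assigned to it, 28600 bp away, matched the long non-coding RNA A730004F24Rik and not Tgfb2. The peak of Tgfb3, the gene of another ligand, lay on chromosome 12 at 86104473 to 86104809 with 5.74-fold enrichment (3.79 to 8.36), 25597 bp outside the body of Tgfb3. It lay inside the body of Ift43, a gene for a protein of transport in cilia, and its assigned start, 22077 bp away, matched Ift43. Both peaks carried H3K4me1, a mark of enhancers, with H3K9ac and H3K27ac, marks of active regulatory regions, and the Tgfb2 peak also H3K4me3. Both overlapped a region of TBX3, a related T-box factor known as a repressor in the conduction system.

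The receptor genes had 14 peaks with a median fold of 4.94 (range 3.25 to 10.5). Tgfbr1, which encodes the type I receptor, had 3 peaks on chromosome 4 and none overlapped a TBX3 region. The strongest, at 47402240 to 47402555 in the gene body, had 9.94-fold enrichment (6.81 to 14.1) from 30 fragments. Its summit stood 244 bp from that of a 3.99-fold peak (2.10 to 7.04), and 16175 bp downstream of the second RefSeq start of the gene. The remaining peak, 5.32-fold (3.01 to 8.83), lay 2643 bp beyond the body and carried none of the 6 histone marks annotated by the authors. Tgfbr2 had 3 peaks, all in its body on chromosome 9. The promoter peak whose sequence is given above, at 116175137 to 116175342, had its summit 76 bp downstream of the start, with 3.69-fold enrichment (2.17 to 5.93) from 15 fragments. The other peaks had 4.81-fold (2.77 to 7.85) and 5.08-fold enrichment (3.26 to 7.57), and both fell in the authors' poised class, with H3K4me1 and without H3K27ac. The promoter peak and the 4.81-fold peak overlapped TBX3 regions. The 3 intervals of Tgfbr2 overlap, so no order of its peaks can be read from the folds.

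Tgfbr3, the gene of the co-receptor betaglycan, which binds TGF-beta ligands and presents them to the type II receptor, had 8 peaks on chromosome 5, more than any other of the 10 genes. Of these 5 lay in the gene body of 107106567 to 107289629, and all 8 were in the authors' active classes. The strongest, at 107129289 to 107129665 in the body, had 10.5-fold enrichment (7.51 to 14.2) from 39 fragments and overlapped a TBX3 region. An 8.24-fold peak (6.12 to 10.9) lay 44012 bp outside the body, within the long non-coding RNA gene Gm33474. The promoter peak, 1082 bp downstream of its assigned start at 107288441 to 107288642, had the lowest fold of the gene, 3.25 (1.94 to 5.15), and overlapped a TBX3 region. The other 5 peaks had folds of 4.04 to 5.60 and no TBX3 overlap.

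**Figure D1:**
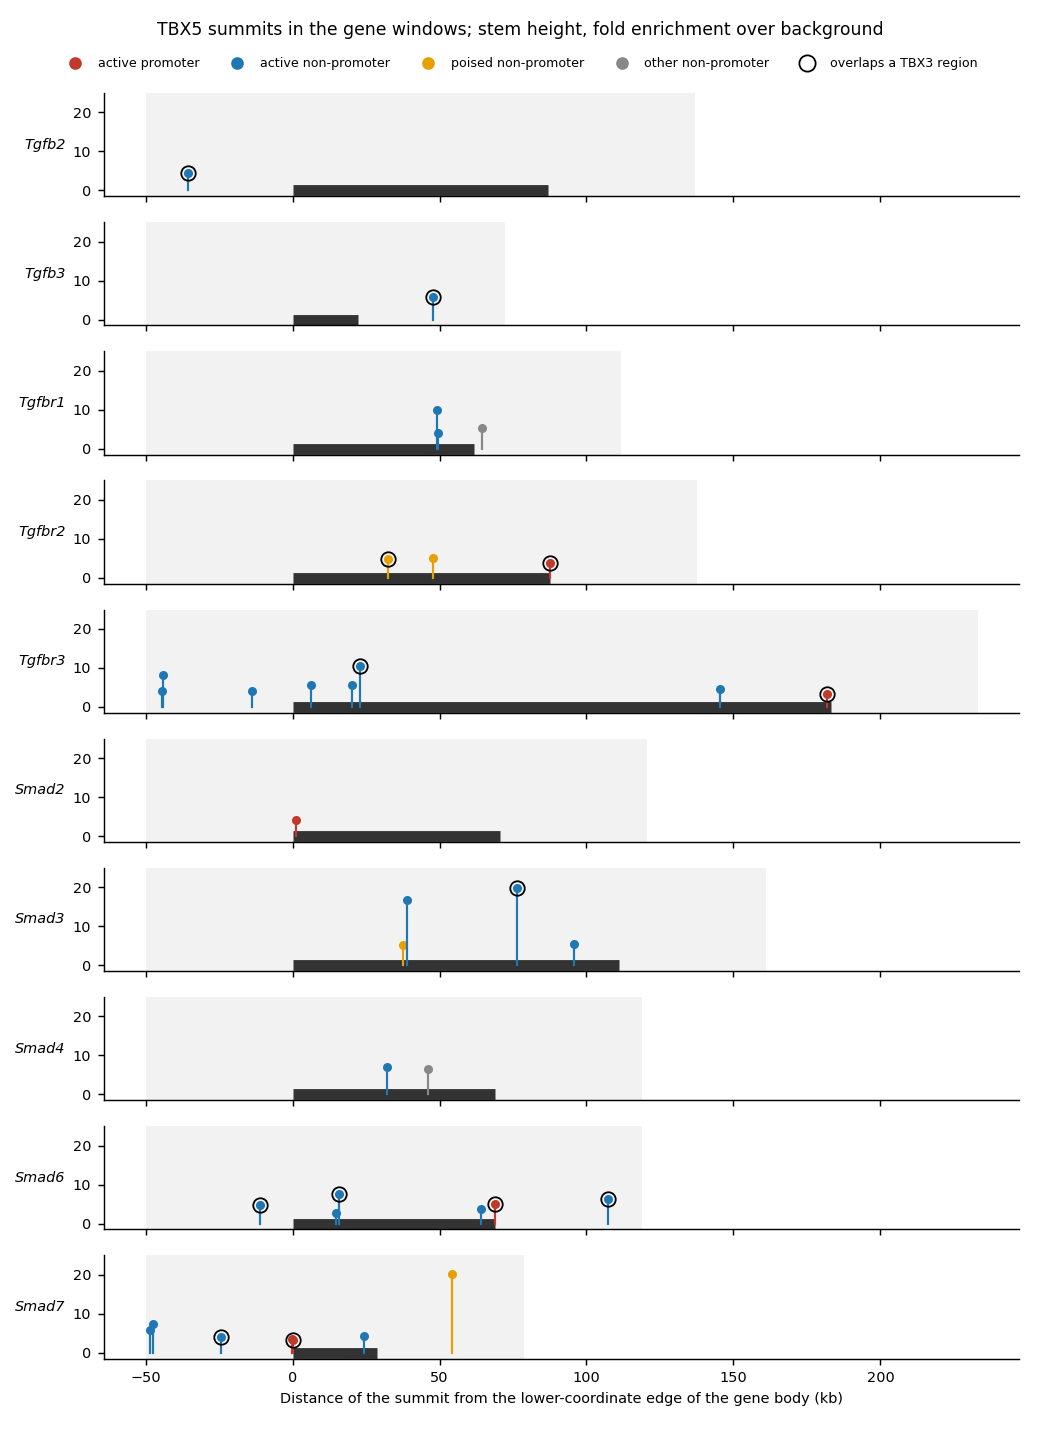
Positions of TBX5 summits along the windows of the 10 genes, in kb from the lower-coordinate edge of each gene body, with the body as a bar and fold enrichment as the height of each line. Of the 36 summits 22 lie in the body of the gene and 14 outside it, and 6 of the 7 at Smad7 lie outside.

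The genes of the receptor-activated SMADs differed in where their peaks lay. Smad2 had 1 peak, in the promoter class, on chromosome 18 at 76242268 to 76242465. Its summit lay 617 bp downstream of its assigned start, which matched no RefSeq start used here, and 1.23 kb from the lower-coordinate edge of the body. The peak had 4.04-fold enrichment (2.57 to 6.07) from 21 fragments and no TBX3 overlap. Smad3 had 4 peaks in its body on chromosome 9 and none at its promoter, the summit nearest to the RefSeq start being 15519 bp from it. Its strongest peak, at 63722933 to 63723303, stood 34893 bp from the start with 19.8-fold enrichment (16.6 to 23.5), carried by 131 fragments, the highest fragment count of the 36 peaks. It ranked 517th of the 12436 peaks and overlapped a TBX3 region. Another at 63685379 to 63685785 had 16.8-fold enrichment (13.2 to 21.0) from 75 fragments, ranked 755th and did not overlap TBX3. This peak carried H3K4me1 and H3K27ac together with H3K9me3, a mark of heterochromatin, but only 1 of the 2 H3K27ac region files marked it. It was the only 1 of the 36 with H3K9me3. The H3K9me3 share was 0.234% among all other peaks, and 1 peak is too few to set against it. The other Smad3 peaks had 5.23-fold (3.02 to 8.54) and 5.38-fold enrichment (3.42 to 8.09), below and apart from the intervals of the strong ones.

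Smad4, the common partner of the receptor-activated SMADs, had 2 peaks in its body on chromosome 18. They had 7.06-fold (4.70 to 10.2) and 6.52-fold enrichment (3.89 to 10.4), at 73666648 to 73666923 and 73680649 to 73680868. The first was active and the second carried none of the 6 marks. Neither overlapped a TBX3 region or fell in the promoter class, whose peaks in the file all lie within 2000 bp of a start. The second lay 2526 bp from its assigned start, which matched no RefSeq start used here. Its summit stood 46.0 kb from the lower-coordinate edge of the Smad4 body of 73634790 to 73703791, well inside the gene.

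The inhibitory SMAD genes held 13 of the 36 peaks. Smad6, whose product mainly restrains BMP signalling, had 6 peaks on chromosome 9, all active and all with H3K9ac. The promoter peak whose sequence is given above, at 64021807 to 64022096, had its summit 112 bp downstream of the start, with 5.07-fold enrichment (3.38 to 7.34), the highest fold of the 6 promoter-class peaks. The strongest, 7.50-fold (5.23 to 10.4), lay in the body at 63968668 to 63968953. A 6.38-fold peak (3.92 to 9.89) lay 38229 bp outside the body at 64060157 to 64060478, 10485 bp from the start of the long non-coding RNA 1110036E04Rik. A 4.78-fold peak (2.81 to 7.69) lay 11217 bp outside the other end. These 4 peaks overlapped TBX3 regions. The remaining 2, both in the body, had 3.70-fold and 2.71-fold enrichment, the second being the weakest of the 36 at rank 12365.

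Smad7, a feedback inhibitor that acts on the type I receptor, had 7 peaks on chromosome 18, of which 1 lay in the body of 75367365 to 75395935. A pair of promoter-class peaks stood at its start, with summits 310 bp apart. They had 3.39-fold (2.13 to 5.15) and 3.31-fold enrichment (2.10 to 4.98), 312 bp and 2 bp upstream of the start, and the second overlapped a TBX3 region. The strongest of all 36 peaks also fell in the Smad7 window, at 75421440 to 75421904, with 20.1-fold enrichment (15.9 to 25.1) from 76 fragments and rank 499. It lay 25720 bp beyond the body and 54290 bp from the start, and the nearest protein-coding gene was Ctif, a translation factor gene, at 9550 bp. It was in the poised class, in which the other 3 peaks of the 10 genes had 4.81-fold to 5.23-fold enrichment and the median of all other poised peaks was 6.41-fold. At the opposite side, a 5.89-fold (3.62 to 9.13) and a 7.32-fold peak (5.59 to 9.42) lay 48534 and 47536 bp outside the body, nearer to Dym than to Smad7. A 3.91-fold peak (2.58 to 5.70) with TBX3 overlap lay 24296 bp upstream, and the peak in the body had 4.35-fold enrichment (2.51 to 7.10).

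**Figure D2:**
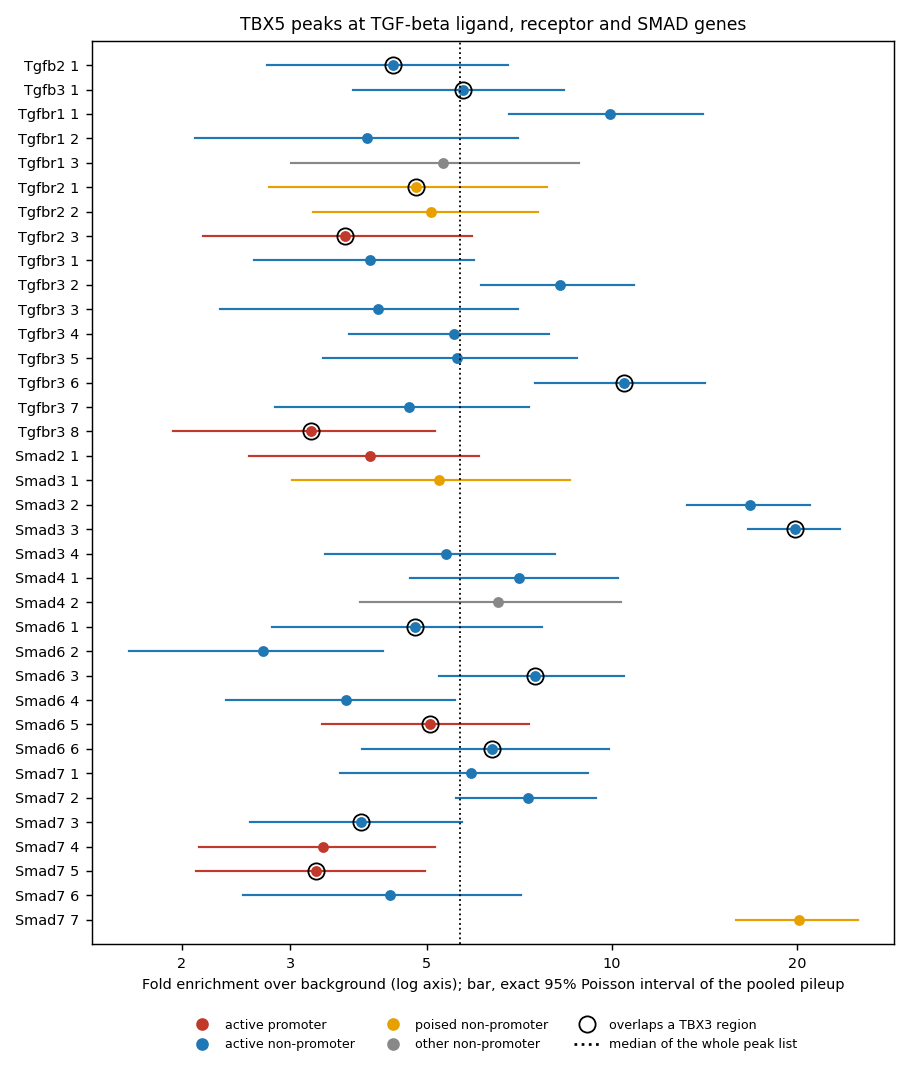
Fold enrichment of each of the 36 peaks on a log axis, numbered along the chromosome within each gene, with exact 95% Poisson intervals as bars, colours for the authors' classes and circles for TBX3 overlap. The 19.8-fold and 16.8-fold peaks of Smad3 and the 20.1-fold peak of Smad7 are the highest of the 36, the interval of the 16.8-fold peak overlapping those of the 10.5-fold Tgfbr3 and 9.94-fold Tgfbr1 peaks, while the 6 promoter peaks lie between 3.25 and 5.07.

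As a group the peaks were of ordinary strength. The median fold was 5.15 (range 2.71 to 20.1) for the 36 peaks and 5.67 (2.11 to 85.6) for all other 12400 peaks, with a median of 21 and 22 fragments at the summit. The median width was 234 bp for the 36 peaks and 251 bp for all others. A fold of at least 10 was reached by 4 of the 36 (11.1%, exact Clopper-Pearson interval 3.11 to 26.1%), at Tgfbr3, Smad3 and Smad7, and by 16.7% of all other peaks. Promoter-class peaks had a median of 3.54-fold at the 10 genes (n = 6) and 4.40-fold elsewhere, and non-promoter peaks 5.46-fold (n = 30) and 6.23-fold (n = 9351). The local background was 3.43 in the median at the 36 summits and 2.83 elsewhere, and its part in the fold was not tested. By role, the median was 5.08-fold for the 2 ligand peaks, 4.94-fold for the receptor peaks and 5.31-fold for the 20 SMAD peaks, with ranges that overlap.

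The promoter class, with a summit within 2000 bp of a start, held 6 of the 36 peaks (16.7%, 6.37 to 32.8%) and 24.6% of all other peaks. They stood at Tgfbr2, Tgfbr3, Smad2 and Smad6, with 2 at Smad7, so 5 of the 10 genes had one, and 30.3% of all 21631 protein-coding genes had one in their window. All 6 carried H3K4me3, H3K9ac and H3K27ac, the marks of active promoters, as did 90.9%, 92.9% and 93.9% of the other promoter-class peaks for these marks in turn. None carried H3K4me1, which 39.8% of the others carried, and with 6 peaks a count of 0 allows a share of up to 50.0%, taken as 3 counts of the total.

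Most of the other peaks had the marks of active enhancers. The authors' active classes held 30 of the 36 peaks (83.3%, 67.2 to 93.6%) and 73.5% of all other peaks, and the poised class 4 (11.1%, 3.11 to 26.1%) and 14.2%. Of the 30 non-promoter peaks 28 carried H3K4me1 (93.3%, 77.9 to 99.2%), against 82.9% elsewhere, and 24 carried H3K27ac (80.0%, 61.4 to 92.3%), against 66.9%. H3K9ac was found on 16 of the 30 (53.3%, 34.3 to 71.7%) and on 30.6% of the other non-promoter peaks (29.7 to 31.6%), the only 1 of these 3 marks whose intervals did not overlap at non-promoter peaks. The H3K9ac peaks were uneven over the genes, with 12 of 13 at the inhibitory SMAD genes and 10 of 23 at the other 8 genes, promoter peaks included. Counted in that way the mark was on 22 of the 36 peaks (61.1%, 43.5 to 76.9%) and on 45.9% of all other peaks, a share inside that interval. Tgfbr1 and Smad4 had none. No peak overlapped H3K27me3, the mark of Polycomb repression, against 1.64% of all other peaks, and a count of 0 of 36 allows up to 8.33% as 3 counts of the total, or 9.74% as the upper Clopper-Pearson limit. These intervals cover counting error only and treat peaks as independent, which neighbouring peaks of a locus are not.

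**Figure D3:**
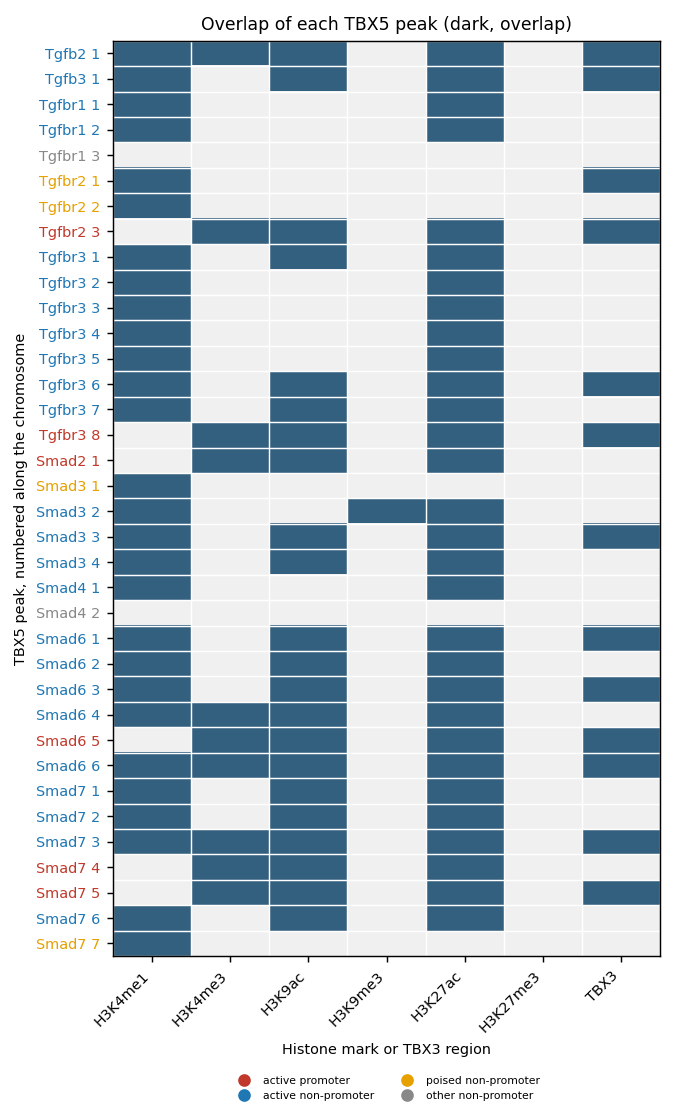
Overlap of each of the 36 peaks with regions of 6 histone marks and of TBX3, with 1 line per peak and dark cells for an overlap. The 6 promoter peaks share 1 pattern of histone marks, with TBX3 overlap in 4 of them, 12 of the 30 others carry H3K4me1, H3K9ac and H3K27ac alone, 2 carry no mark, and the H3K27me3 column is empty.

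TBX3 regions overlapped 13 of the 36 peaks (36.1%, 20.8 to 53.8%) and 3349 of all other 12400 peaks. The share was 4 of 6 among promoter-class peaks (66.7%, 22.3 to 95.7%), against 44.9% elsewhere, and 9 of 30 among the others (30.0%, 14.7 to 49.4%), against 21.2%. Each interval at the 10 genes contains the share elsewhere. Such a peak was present at 7 of the 10 genes, and at 25.5% of all protein-coding genes. Smad6 had 4, Tgfbr2, Tgfbr3 and Smad7 had 2 each, and Tgfb2, Tgfb3 and Smad3 had 1. The genes without one were Tgfbr1, Smad2 and Smad4. The 13 peaks had a median of 4.81-fold, and the 23 without TBX3 overlap one of 5.32-fold.

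**Figure D4:**
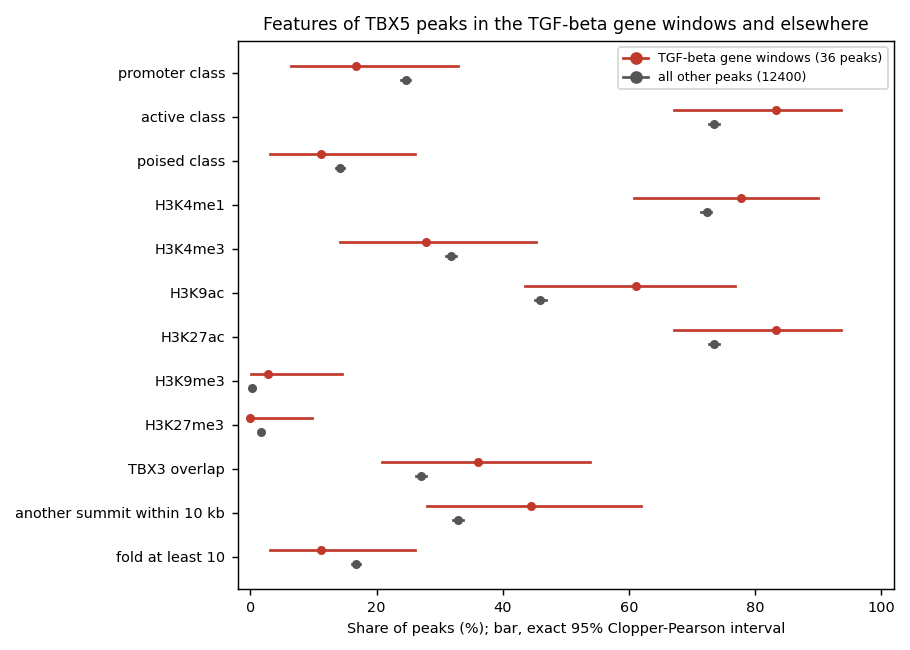
Share of peaks with each feature, in percent, for the 36 peaks at the 10 genes (red) and all other 12400 peaks (grey), with exact 95% Clopper-Pearson intervals. The intervals of the 36 peaks are wide and contain the share elsewhere for all 12 features shown, such as 16.7% against 24.6% for the promoter class.

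All 10 genes had a summit within 50 kb, and 49.8% of all protein-coding genes did. Among genes whose window length was within 1.5 times that of any member the share was 49.2%. That set held 21126 of the 21631 genes, nearly all of them, so it cannot serve as a control for length. The 10 genes had been chosen with earlier results of these data known. Nothing is therefore read from the count of 10, or from the other counts of these genes set beside all genes. In the gene body alone, 8 of the 10 genes had a summit, against 19.2% of all protein-coding genes, and within 10 kb the same 8 did, against 29.9%. The exceptions in both were Tgfb2 and Tgfb3. The bodies of the 10 genes ran from 22.3 to 183 kb, and these shares of all genes were not matched for gene length. With peaks of −log10 q of at least 10 only, 7 of the 10 kept a peak, not Tgfb2, Tgfbr2 or Smad2, against 26.0% of all genes. A fold of at least 10 was present at 3 of the 10, against 11.5%.

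The number of summits was also set against window length, since long genes hold more. The 36 summits over 1790 kb gave 2.01 per 100 kb (exact Poisson interval 1.41 to 2.78). This interval treats summits as independent, which those of a locus are not. The windows of all other protein-coding genes held 0.728 per 100 kb, counting a summit for each gene it falls near. As the 10 genes were chosen with earlier results known, nothing is read from this difference. Smad7 was densest with 5.44 per 100 kb, followed by Smad6 with 3.55 and Tgfbr3 with 2.83. Smad3 (1.89), Tgfbr1 (1.86) and Tgfbr2 (1.60) lay close together. Smad4 (1.18), Tgfb3 (0.818), Smad2 (0.586) and Tgfb2 (0.535) had the lowest densities, from 1 or 2 summits each. Genes with a window of similar length had a median of 0 summits for Smad7 and Tgfb3 and of 1 for the other 8. Of the 36 summits 16 had another summit of the list within 10 kb (44.4%, 27.9 to 61.9%), against 32.9% of all others. They formed 8 pairs, at Tgfbr1, Smad3, and, with 2 pairs each, Tgfbr3, Smad6 and Smad7. Peaks of a pair share their locus and are not independent measurements.

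**Figure D5:**
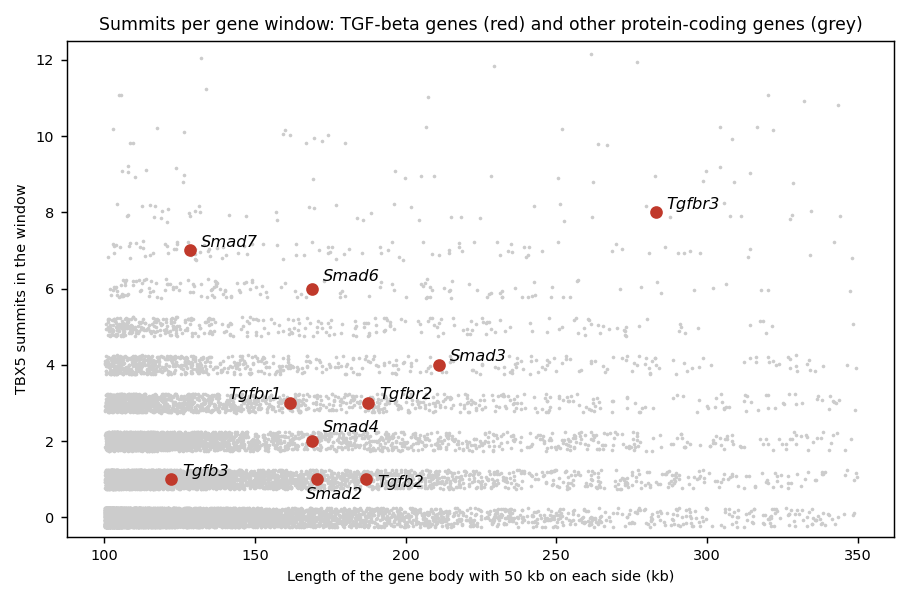
Number of TBX5 summits in each gene window against the window's length in kb, for the 10 genes (red) and other protein-coding genes (grey, shifted slightly up or down at random to part the points), with 725 genes beyond the axes. Tgfbr3, Smad7 and Smad6 stand highest of the 10 with 8, 7 and 6 summits, and Tgfb2, Tgfb3 and Smad2 have 1 each.

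Strong peaks also lay just past the edge of the 50 kb window. The strongest peak within 100 kb of the receptor genes lay 54415 bp outside the Tgfbr3 body, at 107051874 to 107052434 on chromosome 5, just past the limit. It had 55.3-fold enrichment (48.4 to 62.8) from 232 fragments, ranked 25th in the list, was active and without TBX3 overlap, and had Tgfbr3 as its nearest protein-coding gene. Next to Tgfbr2 an 18.1-fold poised peak (13.3 to 24.2) at 116029080 to 116029414 on chromosome 9 lay 58417 bp outside, inside the body of Gadl1. Just past the windows there were also a 3.67-fold peak 56397 bp from Smad6, a 4.51-fold peak 67065 bp from Tgfb2 and a 5.49-fold peak 71706 bp from Smad7. Just inside the limit were the peaks 48534 bp from Smad7 (5.89-fold) and 44513 bp from Tgfbr3 (4.04-fold). The member was the nearest protein-coding gene for 32 of the 36 summits. The start assigned by the authors matched the member for 18 peaks, another gene only for 5, and no RefSeq start used here for 13. Position alone does not say which gene a peak acts on.

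Other genes of the pathway were counted with the same window. Of 59 listed genes 41 had a summit (69.5%), against the 49.8% of all protein-coding genes, with 1.10 summits per 100 kb. This list too was chosen with earlier results known, so nothing is read from the difference. Genes for latency and ligand binding had a summit in 13 of 15 cases, the exceptions being Fbn1, a microfibril gene, and Fst, which encodes the activin antagonist follistatin. Among ligands only Gdf11 and Nodal of 6 had one, and Tgfb1, Inhba, Inhbb and Mstn had none. Of the receptors and co-receptors 6 of 8 had a summit, not Acvrl1 or Tdgf1. The BMP-branch Smad1 and Smad5 had 1 each, of 2.95-fold and 5.10-fold, and Smad9 had none. Cofactors and inhibitors of SMADs had a summit in 10 of 14 cases, not Tgif1, Zfyve9, Trim33 or Ppm1a, and the non-SMAD branch in 3 of 4, not Map3k7. Among the target genes Postn, Snai2 and Twist1 had none. The highest folds were at Ccn2, a matricellular target gene, with 35.7 (30.8 to 41.2) in a promoter-class peak 1693 bp outside its body, and at Fbn2, a microfibril gene, with 35.3 (30.1 to 41.2) in its body. Acvr2b, an activin receptor gene, had 32.6-fold (28.2 to 37.6), Furin, a protease gene, 29.2-fold (25.2 to 33.6) and Dcn, the decorin gene, 23.0-fold (17.4 to 29.7), in peaks 27692, 40321 and 42508 bp outside these genes. All 5 exceeded the 20.1-fold of the strongest peak at the 10 genes, with intervals that overlap for Dcn. For genes without a summit, binding too weak to pass the threshold of the pooled call was not detectable at this depth.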

How the data were processed

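The samples were 2 TBX5 ChIP samples and 1 input sample of whole hearts. Libraries were size-selected to 200 to 650 bp and sequenced from 1 end over 50 bases, per the labels. The submitters' processing notes name Bowtie2, SAMtools, MACS2, ChIPseeker and mm10, without versions or settings. Peaks were called on pooled samples, per the labels. The fold of a peak is the authors' ratio of ChIP fragments to local background at its summit. Each peak's −log10 p and −log10 q were used as deposited. The deposited score equals −log10 q times 10, cut to whole numbers, as tested on all 12436 peaks. No use was made of these values beyond ranking, filtering and describing the peaks. A deposited table adds distances to starts, classes and overlaps with TBX3 and 6 histone marks, whose tissue, stage and overlap rules the sources used here do not give. A mark with a pair of region files counted if either marked the peak.

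Sequencing depth per sample is unknown from the sources used here. The fragment count and the background of each summit were computed jointly, with the fold as (fragments + 1)/(background + 1) and the p as the chance of more fragments under a Poisson law, and all 12436 peaks matched within 0.0005 on the log10 scale. The solution was tested on simulated data. RefSeq bodies of 21631 protein-coding genes of GRCm38.p6 (chromosomes 1 to 19 and X) were used, without exons, so no peak was called exonic or intronic. Positions are 1-based. The tools were Python 3.11.15 with scipy 1.17.1, pandas 2.3.3, numpy 2.4.6 and matplotlib 3.10.9. With pooled peaks no test between samples was made.

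Members, gene lists and motifs were chosen with earlier results of these data known. All members are described. The strongest, the promoter-class and the TBX3-overlapping peaks of each gene and those with a fold of at least 10 were described singly (at most 5 a gene). Other peaks described singly were chosen after their values were seen. Of the other pathway genes the 5 with the highest fold were named, and those without a peak by role, except 1 gene that is not reported here; Smad1 and Smad5 were added after their values were seen. Alternatives were other windows, a stricter q, the nearest gene, overlap of any base of the peak, a narrower promoter limit, marks in both files and a longer motif.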

Additional observations from a re-analysis of the deposited data

How the results depend on the processing

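Of 56 alternatives to the main results 46 stayed within the limits set for them and 10 moved. Without extension of the gene bodies, 22 peaks remained at 2.78 per 100 kb. Under this setting 22 of the 59 other pathway genes had a summit, against 19.2% of all protein-coding genes. That list was chosen with earlier results known, so nothing is read from its counts set beside all genes. With −log10 q of at least 10, 11 of the 36 peaks remained, with 0.615 per 100 kb and a median of 8.24-fold. Their promoter-class share was 0%. The same limit kept 5145 of all other 12400 peaks, 728 of them in the promoter class. Under it 26 of the 59 other pathway genes had a summit, against 26.0% of all protein-coding genes. With fewer peaks or less sequence counted, these counts fall by construction. Promoter peaks alone had a median of 3.54-fold. The longer motif AGGTGTGA stood in 0% of the 6 promoter sequences, against 16.7% for the T-box core. Of all 32619 RefSeq promoters 1.28% held the longer motif and 13.8% the core. With 6 sequences nothing is read from either share. The strongest fold of each gene was examined after seeing the data, and of the 52 alternatives that left a peak it was the same in 46. In 8 further cases no peak was left, at Tgfb2 and Tgfb3 within 10 kb and without extension, at Tgfb3 by nearest gene, and at Tgfb2, Tgfbr2 and Smad2 with the stricter q. For Smad7 it was 4.35 within 10 kb, without extension and by nearest gene. At 100 kb it was 4.51 for Tgfb2, 18.1 for Tgfbr2 and 55.3 for Tgfbr3. With H3K27ac required in both files, 72.2% of the 36 peaks were active, against 83.3% with either file. Marks in both files could not be asked of TBX3, H3K9ac, H3K9me3 and H3K27me3, which have 1 file each. No paired analysis was possible because the peaks were called on pooled samples, and for the same reason no replicate could be left out.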
